A study of Mus musculus with 64 samples.

Results

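Messenger RNA of liver was set against messenger RNA of gonadal white fat in arsenic-exposed mice, using every mRNA library of the series, which is 23 of its 64 libraries. The 12 liver and 11 fat libraries were listed in separate tables over the same 48440 gene identifiers, and each library was scaled to a sum of 1000000, so that a value is the share of that library's signal taken by 1 gene, written in parts of 1000000 (ppm). All mice were 129S6/SvEvTac, and all drank water with 400 ppb of inorganic arsenic over 4 weeks, so no unexposed animals were among these libraries. Wild-type (WT) mice carried the mouse arsenic methyltransferase gene As3mt, and humanized mice expressed the human ortholog AS3MT in its place. Liver had 3 libraries for every combination of sex and genotype, and fat likewise, except that WT males had 2. The labels do not give ages, say whether an animal was used alone or pooled, or state whether liver and fat came from the same animals. Labels give ribosomal depletion for 6 liver libraries, polyA enrichment for the other 6, and a cited published protocol for all fat libraries, so that tissue and preparation cannot be told apart. A share also grows with transcript length, so levels are compared between tissues gene by gene, and ranks of genes within a tissue carry their lengths. In bulk tissue, fewer cells of a type and less RNA per cell cannot be told apart.

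The liver makes most plasma proteins, turns ammonia into urea, makes bile acids from cholesterol, and oxidizes drugs and hormones through cytochrome P450 enzymes, and it is the main site where inorganic arsenic is methylated by As3mt. White fat stores triglyceride in large droplets coated by perilipins, releases it by lipolysis, and secretes hormones such as adiponectin and leptin. Gonadal fat also holds fibroblast-like progenitors, endothelial cells, macrophages and a mesothelial covering, while liver adds Kupffer cells, sinusoidal endothelium and stellate cells to its hepatocytes.

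Promoter sequences are shown for genes of high level in 1 tissue. They run from 250 bases before to 50 bases after the RefSeq start in GRCm38.p6, on the gene's strand. Shown are Alb (chr5:90460620-90460919, plus strand) and Apoa1 (chr9:46228380-46228679, plus strand), called higher in liver, and Adipoq (chr16:23146286-23146585, plus strand) and Gsn (chr2:35256109-35256408, plus strand), called higher in fat. Capitals mark matches on either strand to TATAAA (the letters of the TATA box), GTTAAT (the core of HNF1 sites), CAAAGTCCA (HNF4A), TTGCNNAA (C/EBP), CCAAT or GGGCGG (the GC box). Matches were taken at any position in the window.
Alb: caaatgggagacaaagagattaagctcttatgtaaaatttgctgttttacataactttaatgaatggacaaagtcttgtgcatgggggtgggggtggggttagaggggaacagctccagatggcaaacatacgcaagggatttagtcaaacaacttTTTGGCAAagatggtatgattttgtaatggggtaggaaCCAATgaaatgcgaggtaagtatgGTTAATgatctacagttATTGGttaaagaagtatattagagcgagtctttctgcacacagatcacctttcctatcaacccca
Apoa1: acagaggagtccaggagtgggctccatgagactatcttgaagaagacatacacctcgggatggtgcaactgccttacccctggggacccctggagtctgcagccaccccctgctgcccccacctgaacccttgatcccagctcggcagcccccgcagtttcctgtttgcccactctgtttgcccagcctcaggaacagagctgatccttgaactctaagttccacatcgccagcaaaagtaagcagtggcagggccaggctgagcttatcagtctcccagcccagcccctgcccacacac
Adipoq: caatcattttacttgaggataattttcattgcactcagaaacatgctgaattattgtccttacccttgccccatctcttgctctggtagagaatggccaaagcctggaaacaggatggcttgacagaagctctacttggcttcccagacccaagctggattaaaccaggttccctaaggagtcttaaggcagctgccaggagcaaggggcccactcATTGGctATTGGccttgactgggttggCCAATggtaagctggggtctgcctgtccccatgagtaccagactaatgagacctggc
Gsn: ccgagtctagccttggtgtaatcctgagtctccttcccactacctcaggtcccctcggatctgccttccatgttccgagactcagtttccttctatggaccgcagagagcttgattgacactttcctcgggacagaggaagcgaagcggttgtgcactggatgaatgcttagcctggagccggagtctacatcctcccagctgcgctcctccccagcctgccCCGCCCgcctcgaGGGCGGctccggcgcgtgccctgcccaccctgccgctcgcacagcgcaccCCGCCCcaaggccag

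The Alb window held GTTAAT, TTGCNNAA and CCAAT, the Adipoq window held CCAAT at 3 positions, the Gsn window held GGGCGG at 3 positions, and the Apoa1 window held none of these letters. Alb had 3 CG pairs in its 300 bases, Apoa1 had 4, Adipoq had 0 and Gsn had 20. Adipoq thus lay below the medians that follow, and Gsn lay at or above them. Gsn has 3 listed starts, of which the first listed was used. Of 13764 genes compared below, 10622 had a promoter entry by symbol, among them 644 of the genes called higher in liver and 1991 of those called higher in fat by the rule given below. The median number of CG pairs was 7 in promoters of liver-called genes, 18 in those of fat-called genes and 20 over all compared genes. GTTAAT was in 13.2% of liver-called promoters, 3.21% of fat-called promoters and 4.43% of all compared, against 7.20% of all 27025 RefSeq windows. TTGCNNAA was in 16.0% of liver-called, 8.39% of fat-called and 8.65% of compared promoters, against 10.8% of all windows. TATAAA, at any position on either strand, was in 15.7%, 8.59% and 7.60% of these sets in that order, against 14.2% of all windows. On the gene's strand, starting 45 to 20 bases before the start, it was in 4.35%, 2.01% and 1.37%, against 2.36%. CAAAGTCCA was in 2.33% of liver-called, 0.251% of fat-called and 0.527% of compared promoters, against 0.477% of all windows. GGGCGG was in 39.1% of liver-called, 63.6% of fat-called and 62.8% of compared promoters, against 35.9% of all windows. CCAAT was in 42.7%, 34.4% and 38.4% of these sets, against 37.9% of all windows. Matches of different motifs overlapped in at most 94 windows for any pair of motifs. These shares describe letters in a window and were not tested.

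Deposited signal summed to 77307210 to 95381805 per liver library and 83100312 to 90417259 per fat library, and 18806 to 19559 genes were above 0 in liver against 20906 to 21926 in fat. Read counts were not recovered from these normalized values, so the sequencing depth is unknown. The replaced locus matched the labels in all 23 libraries: mouse As3mt was 30.9 to 72.7 ppm in the 6 WT livers and at most 0.0707 in the 6 humanized livers, and 14.5 to 19.2 in the 5 WT fat libraries and at most 0.0624 in the 6 humanized ones. Between the labelled liver preparations limma called 0 of 15180 genes (0%), with 659 at an unadjusted p under 0.05.

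A pair of fat libraries and a liver library stood apart. WT male fat replicate 5 carried liver transcripts: over the 100 highest genes called higher in liver, its level was a median of 3.24% of the mean liver level, against 0.0204% to 0.239% in the other 10 fat libraries. Alb, which encodes serum albumin, was 1555 ppm in that library and 7.18 to 151 in the others. The red cell gene Hbb-bs was 10054 ppm there against a fat median of 719, so the summed share of erythrocyte genes was 2.60% of its signal. Humanized male fat replicate 4 gave 6.76% of its signal to its 10 highest genes, against 10.6% to 14.1% in the other fat libraries. It had the lowest Adipoq and Scd1 of all fat libraries, at 1401 and 13176 ppm, and the highest levels of the macrophage genes Lyz2 (1426 ppm) and Gpnmb (1044 ppm). WT male liver replicate 1 had acute-phase transcripts at high levels, with Saa1 at 3355 ppm against 11.0 to 311 in the other livers and Hp, which encodes haptoglobin, at 15146 ppm against 2142 to 8008. Without both fat libraries, liver calls among the sex-biased liver genes rose from 3 to 8. The liver and fat calls of every other gene list described below changed by at most 2 genes.

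**Figure D1:**
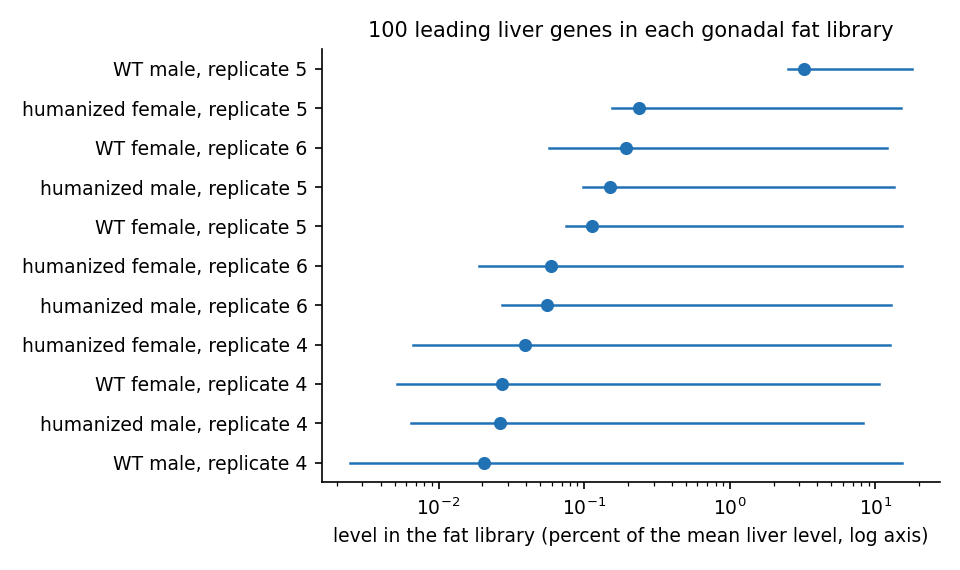
Level of the 100 highest liver-called genes in each fat library, as a percent of the gene's mean liver level on a log axis. Points are medians over genes and lines run from the 10th to the 90th percentile. The median is 3.24% in WT male replicate 5 and between 0.0204% and 0.239% in the other 10 libraries.

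The defining markers matched both tissue labels. Alb was 44019 to 97843 ppm in liver (median 62359) and 7.18 to 1555 ppm in fat (median 55.2). By group, liver Alb averaged 90428 ± 10524 ppm (SD, n = 3) in WT females, 49738 ± 6172 (n = 3) in WT males, 73116 ± 16870 (n = 3) in humanized females and 56419 ± 10435 (n = 3) in humanized males. Every liver library lay above every fat library. Adipoq, which encodes the fat hormone adiponectin, was 1401 to 3848 ppm in fat (median 2797) and 0 to 0.0813 in liver (median 0.0212). Fat Adipoq averaged 3261 ± 523 ppm (n = 3) in WT females, 2501 ± 249 (n = 2) in WT males, 3207 ± 380 (n = 3) in humanized females and 2284 ± 768 (n = 3) in humanized males. The sex and genotype groups overlapped in fat, while all fat libraries lay above all liver libraries.

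A gene was compared if the average of its 2 tissue means reached 1 ppm, which held for 13764 genes, and 34676 fell below. It was called higher in a tissue when every library of that tissue exceeded every library of the other and the mean log2 of the share plus 1 differed by at least 2, a fold of 4. The rule called 847 genes higher in liver, 6.15% of those compared, and 2652 higher in fat, 19.3%. Without the size requirement, 1367 genes (9.93%) lay wholly higher in liver and 7264 (52.8%) wholly higher in fat. No test was made between the tissues, because their tables were normalized separately, and p values below, all within a tissue, measure only the spread between these samples. The median difference over compared genes was -0.84 on the log2 scale (liver minus fat), which means that the typical gene took a smaller share of liver signal. Median-ratio scaling, which centres the typical gene, moved that median by 0.88 and gave 1251 liver and 1514 fat calls, so that the liver share of calls went from 24.2% to 45.2%. Without the pair of fat libraries that stood apart, 882 genes were called in liver and 2621 in fat.

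Each of the 4 groups gave similar counts when compared alone. Liver calls numbered 939 (6.82%) in WT females, 919 (6.68%) in WT males, 922 (6.7%) in humanized females and 996 (7.24%) in humanized males. Fat calls numbered 2412 (17.5%), 2794 (20.3%), 2809 (20.4%) and 2873 (20.9%) in the same order. Called in each group alone were 750 genes (5.45%) in liver and 2023 (14.7%) in fat, and 0 genes (0%) were called in opposite directions in different groups.

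**Figure D2:**
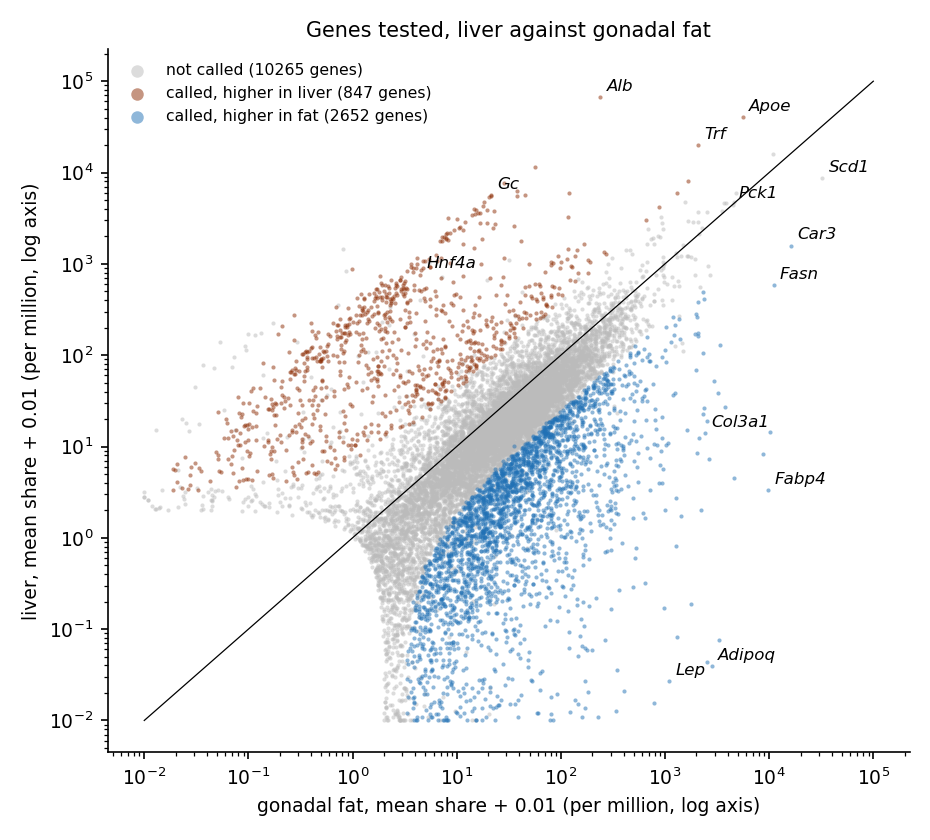
Mean share of each of the 13764 compared genes in fat (horizontal) and liver (vertical), ppm on log axes with 0.01 added, as means of the 4 group means. The line marks equal shares. The 847 liver-called genes lie above it and the 2652 fat-called genes below, with Alb and Adipoq far from it on opposite sides and Pck1 near it at a high level.

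Liver signal was concentrated in fewer genes. The single highest gene took 4.40% to 9.78% of a liver library (median 6.24%) and 1.32% to 4.47% of a fat library (median 3.27%). The 10 highest genes took 17.4% to 22.9% in liver (median 19.4%) and 6.76% to 14.1% in fat (median 12.5%), and the tissues did not overlap. The 100 highest took 41.8% to 46.8% in liver and 24.1% to 31.6% in fat. Between 130 and 200 genes made up 50% of a liver library, against 528 to 775 genes for a fat library. The 847 liver-called genes took 43.3% to 50.6% of liver signal and 1.56% to 3.58% of fat signal. The 2652 fat-called genes, more than 3 times as many, took 33.5% to 36.6% of fat signal and 1.91% to 2.84% of liver signal. The share of the 10 highest liver genes was 2.26 percentage points lower in males (mean 18.7%, n = 6) than in females (20.9%, n = 6), with an exact two-sided permutation p of 0.0281 that came to 0.113 after Benjamini-Hochberg adjustment over 4 comparisons. Within ribosomal-depletion livers that difference was -1.94 points and within polyA livers -2.57 points. The other 3 comparisons, of genotype in liver and of sex and genotype in fat, had adjusted exact permutation p values of 0.528, 0.519 and 0.758. The fat genotype difference was -0.62 points and turned to 0.34 without humanized male replicate 4. Without both fat libraries that stood apart, the fat sex difference went from -1.45 to -0.08 points and the genotype difference was 0.10.

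Secreted plasma proteins led the liver libraries. Of the 15 highest liver genes, 12 were called higher in liver, and the 3 that were not were Scd1, mt-Co1 and mt-Cytb. After Alb came Apoe, which encodes the lipoprotein ligand apolipoprotein E, at 29361 to 51578 ppm in liver (median 40390) and 4164 to 8614 in fat (median 4705), a 7.17-fold ratio of means. Trf, encoding the iron carrier transferrin, was 15067 to 23594 ppm in liver (median 21075) and 936 to 2941 in fat (median 2087), a 9.69-fold ratio. These genes were high in liver, yet their fat levels ranked 8th and 43rd of all genes in fat. Apoa1, the main protein of high-density lipoprotein, was 6001 to 17024 ppm in liver (median 11818) and 0.731 to 400 in fat (median 4.88). Gc, the vitamin D carrier, was 4797 to 6506 ppm in liver (median 5489) and 0.167 to 151 in fat (median 1.64), and Ahsg, encoding fetuin-A, was 5168 to 11346 in liver (median 7230) and 0.657 to 195 in fat (median 2.69). The fat maximum of each of Apoa1, Gc and Ahsg was in WT male replicate 5. Serpina1a, Serpina1b and Serpina3k, protease inhibitors among the 15 highest, belong to families of near-identical copies, so their values are uncertain between copies.

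**Figure D3:**
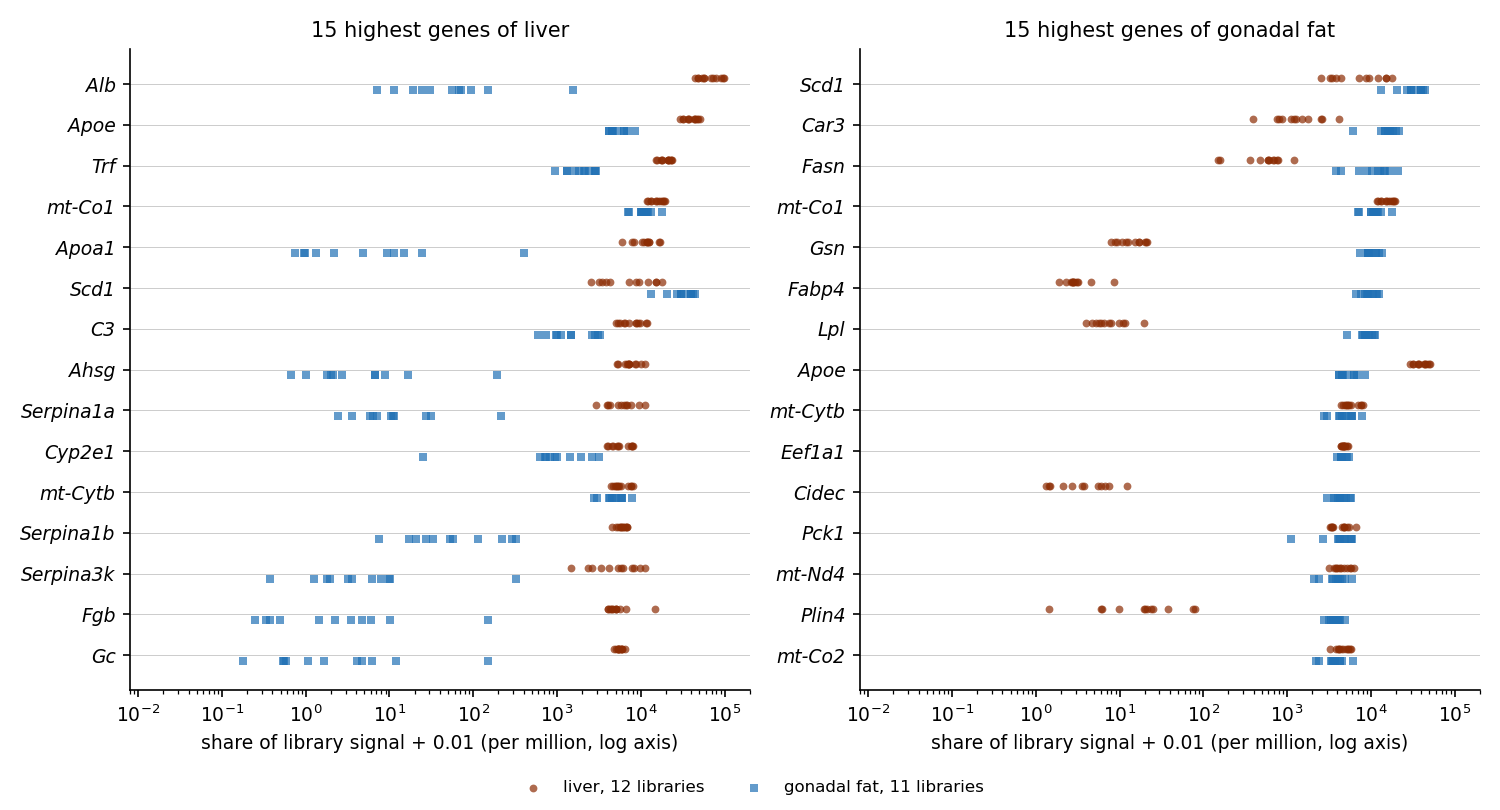
Share of library signal, ppm with 0.01 added on a log axis, for the 15 highest genes of liver (left) and of gonadal fat (right), with each of the 12 liver and 11 fat libraries as a point. Alb, Apoa1 and Gc are separated by more than a factor of 10 between tissues, whereas mt-Co1, mt-Cytb, Eef1a1 and Pck1 overlap. For Alb, Apoa1 and Gc the rightmost fat library is WT male replicate 5.

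Lipid genes were among the highest of the fat libraries, beside mitochondrially encoded and other genes. Of the 15 highest genes in fat, 7 were called higher in fat, Apoe was called higher in liver, and 7 were not called. Those not called included Scd1, Pck1, mt-Co1, mt-Cytb and the translation factor gene Eef1a1. Scd1, a fatty acid desaturase, was 13176 to 44726 ppm in fat (median 32671) and 2559 to 18106 in liver (median 8014), first in rank in fat and sixth in liver, and the tissues overlapped. Car3, the carbonic anhydrase typical of fat and muscle, was 6092 to 21704 ppm in fat (median 16203) and 390 to 4161 in liver (median 1240), a 10.2-fold ratio. Fasn, encoding fatty acid synthase, was 3823 to 21408 ppm in fat (median 12154) and 148 to 1197 in liver (median 599), an 18.9-fold ratio. Gsn, encoding the actin-severing protein gelsolin, was 7522 to 13570 in fat (median 9498) and 7.86 to 21.5 in liver (median 14). Fabp4, the fatty acid carrier of adipocytes, was 6604 to 12646 in fat (median 9356) and 1.89 to 8.60 in liver (median 2.79). Lpl, the lipase that frees fatty acids from circulating triglyceride, was 5181 to 11195 in fat (median 8749) and 3.96 to 19.6 in liver (median 6.97). Every fat library lay above every liver library for Car3, Fasn, Gsn, Fabp4 and Lpl.

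Counts in the gene lists that follow stand against 6.15% of all compared genes called in liver and 19.3% called in fat. Most genes of the plasma protein, urea cycle, bile acid, cytochrome P450 and complement groups were called in liver. Of 30 sex-biased liver genes, 3 were called in liver and 0 in fat (median 3.91). Without WT male fat replicate 5, 8 of them were called in liver. Of 36 genes for secreted plasma proteins, 34 were called higher in liver and 0 in fat, with a median log2 difference of 9.32 against -0.84 over all compared genes. They took 16.9% to 23.6% of liver signal and 0.243% to 1.03% of fat signal. The 2 that were not called were Hp and the sex-dependent Serpina1e. Of 30 genes of the urea cycle and amino acid breakdown, 29 were called in liver, with a median of 7.85. Cps1, which starts the urea cycle, was 1935 to 3376 ppm in liver (median 2529) and 0.0111 to 78.6 in fat (median 0.572), and Ass1, its argininosuccinate synthase, was 2351 to 4960 against 5.11 to 103. Of 17 bile acid and sterol genes, 15 were called in liver (median 6.60), among them the bile salt pump Abcb11 at 353 to 613 ppm against 0 to 9.68 in fat. Of 28 cytochrome P450 and conjugation genes, 20 were called in liver (median 7.16). Cyp2e1, which oxidizes ethanol and small toxicants, was the highest of them, at 3965 to 8119 ppm in liver and 24.9 to 3139 in fat. The electron donor Por was at overlapping levels, 340 to 1683 in liver and 331 to 877 in fat. Of 30 complement and coagulation genes, 20 were called in liver and 4 in fat (median 5.54), and 1 in fat after median-ratio scaling. The liver-called ones included C3, the central complement protein, at 5072 to 11989 ppm against 588 to 3304, and the fat-called ones were C1qa, C1qb, C1qc and Cfd, the serine protease adipsin.

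Nuclear regulators followed the same split. Of 18 liver transcription factors, 16 were called in liver (median 4.83). Hnf4a, a nuclear receptor of hepatocytes, was 599 to 1048 ppm in liver (median 781) and 0.0841 to 22.3 in fat (median 0.628), and Creb3l3, a membrane-bound factor of the fasting response, was 376 to 590 against 0.240 to 15.8. Of 17 adipocyte transcription factors, 8 were called in fat and 0 in liver (median -1.99), or 1 in liver after median-ratio scaling. Ebf2, an early B-cell factor of the adipocyte lineage, was 28 to 57.8 ppm in fat and at most 0.0113 in liver. Cebpa, which acts in both hepatocytes and adipocytes and stood in both lists, was 861 to 1791 in fat and 397 to 841 in liver, wholly higher in fat but short of the size requirement (-1.29). Of 17 Hox and other positional genes above the minimum, 12 were called in fat and 1, Gata4, in liver (median -2.73), or 9 in fat after median-ratio scaling. Hoxc8 was 45.4 to 114 ppm in fat and listed at 0 in all 12 liver libraries.

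The storage and hormone genes of fat were called in part. Of 24 lipid droplet and lipolysis genes, 14 were called in fat and 3 in liver (median -2.59). After median-ratio scaling 10 were called in fat and 4 in liver (median -1.65). Plin1, the perilipin that guards the adipocyte droplet, was 1945 to 3147 ppm in fat (median 2720) and 0 to 0.136 in liver. Cidec, which fuses droplets, was 3012 to 5770 against 1.30 to 12.3, and Pnpla2, the lipase that begins lipolysis, was 1786 to 4567 against 92.2 to 187. The 3 called in liver without that scaling were Plin5, Cideb and Fabp1. Of 18 adipokines and other secreted products above the minimum, 10 were called in fat and 3 in liver (median -2.27), or 8 in fat and 5 in liver after median-ratio scaling. Leptin (Lep), which signals fat stores to the brain, was 432 to 2923 ppm in fat (median 948) and at most 0.159 in liver. Cfd was 372 to 6790 in fat (median 2860) and at most 0.374 in liver. The liver-called ones were Rbp4, the retinol carrier, at 1904 to 4060 ppm against at most 929 in fat, and Agt and Fgf21.

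**Figure D4:**
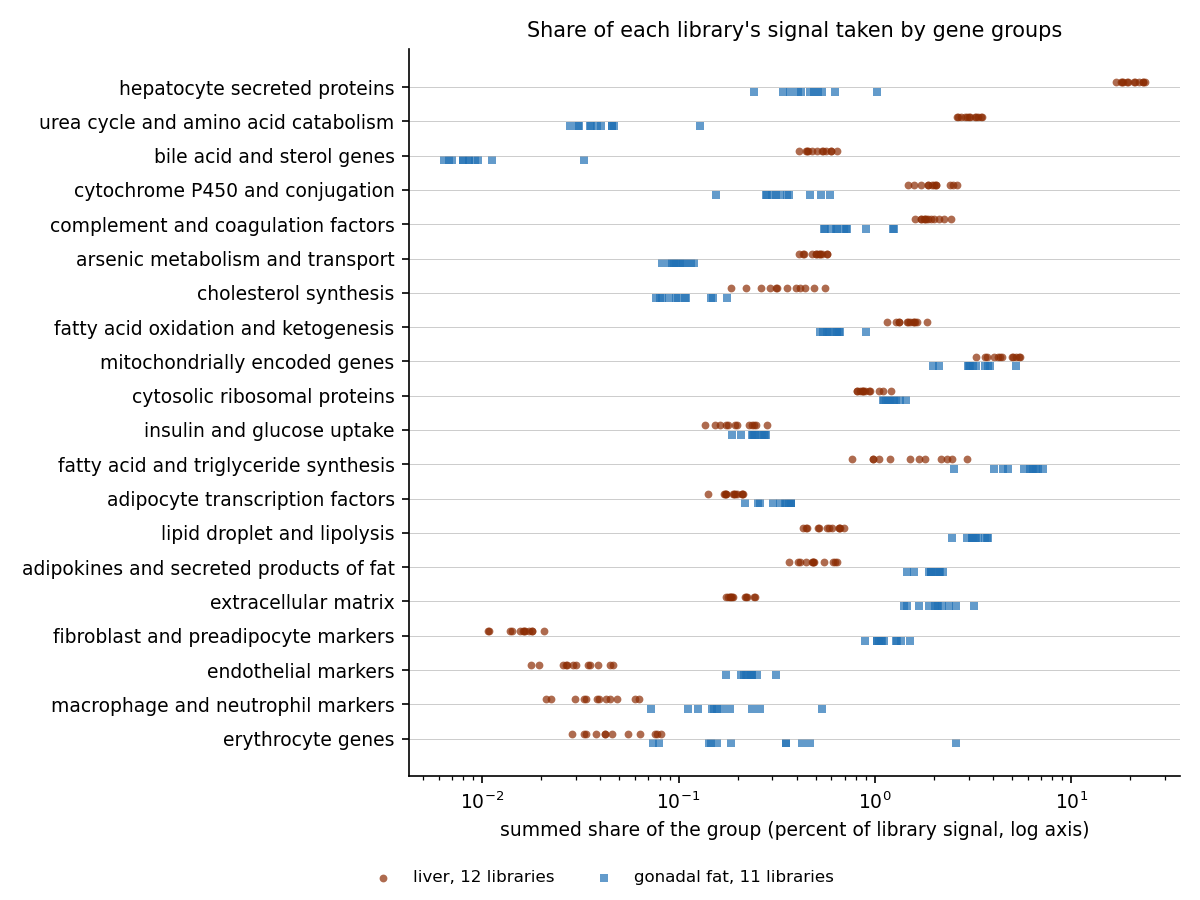
Summed share of 20 gene groups in each of the 12 liver libraries (circles) and 11 fat libraries (squares), as percent of library signal on a log axis. Plasma protein genes take 16.9% to 23.6% of liver libraries and at most 1.03% of fat libraries, extracellular matrix genes take 1.40% to 3.21% of fat and at most 0.246% of liver, and mitochondrially encoded genes overlap.

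Matrix genes and most listed markers of fibroblasts, endothelium, mesothelium and macrophages were called higher in fat. Of 28 extracellular matrix genes, 27 were called in fat, with a median log2 difference of -5.92, and 0 in liver, or 1 after median-ratio scaling. Col3a1, a fibrillar collagen, was 1330 to 4435 ppm in fat (median 2080) and 5.50 to 24.0 in liver, and the basement membrane gene Col4a1 was 1502 to 3571 against 14.9 to 56.2. The exception was Fn1, encoding fibronectin, which was 1356 to 2100 in liver and 319 to 1214 in fat. Of 14 fibroblast and preadipocyte markers, 11 were called in fat (median -4.01), as were 12 of 18 endothelial markers (median -3.49) and 11 of 14 mesothelial markers (median -3.92). After median-ratio scaling 5 mesothelial markers were called in fat, and 1 fibroblast marker was called in liver. The summed mesothelial share overlapped, at 0.0258% to 0.0622% of liver signal and 0.0224% to 0.150% of fat signal. Of 14 cholangiocyte and stellate cell markers, 5 were called in liver and 4 in fat (median 1.24). Their summed share was 0.0177% to 0.0355% in liver and 0.0817% to 0.222% in fat. The keratins Krt8 and Krt18, which hepatocytes also make, were the 2 mesothelial list members called in liver, and Clec4g, of liver sinusoidal endothelium, was the endothelial one. Of 19 macrophage and neutrophil markers, 12 were called in fat and 2 in liver (median -2.29), and 4 in fat after median-ratio scaling. The liver-called ones were Clec4f and Vsig4 of Kupffer cells. Clec4f was 45 to 143 ppm in liver and at most 3.03 in fat. The summed macrophage and neutrophil share was 0.0720% to 0.540% of fat signal, with its highest value in humanized male replicate 4, and its part in any difference was not tested. Genes of neighbouring organs were low in fat: 0 of 21 epididymis and male tract genes found in the tables reached the minimum, and 4 of 22 ovary and female tract genes did. Skeletal muscle genes took 0.00344% to 0.0649% of fat signal.

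Lipid synthesis genes were called in both directions. Of 27 fatty acid and triglyceride synthesis genes, 5 were called in fat, a share near the 19.3% of all genes, and 5 in liver, a share above the 6.15% of all genes. With ribosomal-depletion livers alone 8 were called in fat, and their median of -0.81 became 0.13 under median-ratio scaling. The fat-called ones were Fasn, Scd2, Dgat1, Mogat1 and Mogat2, and the liver-called ones were Fads1, Fads2, Elovl2, Elovl5 and Lpin2, which act in polyunsaturated fatty acid synthesis and, for Lpin2, in making diacylglycerol. Acly, which supplies acetyl-CoA, was 461 to 3135 ppm in fat and 71.5 to 942 in liver, with overlap. The group took 2.54% to 7.20% of fat signal and 0.766% to 2.93% of liver signal. Of 25 cholesterol synthesis genes, 9 were called in liver and 0 in fat (median 1.95), and 15 in liver after median-ratio scaling. Of 26 fatty acid oxidation and ketogenesis genes, 10 were called in liver and 1, Oxct1, which lets tissues other than liver burn ketone bodies, in fat (median 1.14). Of 14 gluconeogenesis and glycogen genes, 11 were called in liver (median 5.02). Pck1 was not among them: it was 3268 to 6574 ppm in liver (median 4669) and 1117 to 5989 in fat (median 4842), a ratio of means of 1.01. Pck1 makes phosphoenolpyruvate for glucose in liver and for the glycerol backbone of triglyceride in fat.

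Genes that were high in both tissues were only in part close in share. Of the 100 highest genes, 28 were shared by liver and fat. Some of these lay far apart, such as Apoe, with a mean of 40188 ppm in liver and 5608 in fat, and Car3, with 1585 and 16111. Eef1a1, a translation elongation factor, was 4394 to 5279 ppm in liver and 3993 to 5478 in fat, a log2 difference of 0.05 that became 0.99 under median-ratio scaling. Of 37 cytosolic ribosomal protein genes, 0 were called, and their median of -0.47 turned to 0.47 under that scaling. Of 15 mitochondrially encoded genes, 0 were called (median 0.48, or 1.43 with 2 called in liver under that scaling), and their summed share was 3.27% to 5.49% in liver and 1.96% to 5.24% in fat. mt-Co1, a subunit of cytochrome oxidase, was 11720 to 19715 ppm in liver and 7046 to 18096 in fat. RNAs without a polyA tail and structured RNAs took 0.0732% to 0.158% of liver signal and 0.255% to 0.575% of fat signal. Most of that was Malat1, at 279 to 988 ppm in liver and 805 to 1895 in fat, and Neat1, at 118 to 550 and 1167 to 3470, both nuclear RNAs, of which Neat1 was called in fat. The preparation differs between the tissues and its part in these RNAs was not tested.

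Genes of arsenic handling together took 0.409% to 0.569% of liver signal and 0.0827% to 0.12% of fat signal. Of 19 above the minimum, 4 were called in liver and 4 in fat, beside 6.15% and 19.3% of all compared genes, so that the fat count is near the share of all genes (median 0.01, or 0.92 under median-ratio scaling). Liver-called were Mat1a, which makes the methyl donor S-adenosylmethionine, at 2617 to 4236 ppm against 0.134 to 107, the aquaglyceroporin Aqp9, which takes up arsenite, at 293 to 499 against 0.479 to 11.7, the export pump Abcc2 at 207 to 400 against 0.0601 to 6.77, and the glutathione synthesis gene Gclc. Much of the summed liver share of these genes was Mat1a alone. Fat-called were the aquaglyceroporin Aqp7, the glucose transporter Slc2a4, and the export pumps Abcc1 and Abcc4. Mat2a, the form of the methyl donor enzyme outside liver, was 133 to 307 ppm in fat and 52.5 to 99.5 in liver. Mouse As3mt averaged 71.3 ± 1.58 ppm (n = 3) in liver of WT females, 47.4 ± 15.2 (n = 3) in liver of WT males, 16.4 ± 2.48 (n = 3) in fat of WT females and 16.5 ± 2.55 (n = 2) in fat of WT males. The 6 WT livers lay above the 5 WT fat libraries. Of 20 oxidative stress genes and metallothioneins, 2 were called in liver and 1, the secreted peroxidase Gpx3, in fat (median 0.73), beside 6.15% and 19.3% of all compared genes. After median-ratio scaling 7 were called in liver (median 1.65).

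Within liver, 16 of the 100 highest genes differed between the sexes, 14 higher in males and 2 in females. Limma, fitted over 15180 liver genes with the preparation as a term, called 1456 genes between males and females (9.59%) at a Benjamini-Hochberg adjusted p under 0.05, 625 higher in males (4.12%) and 831 higher in females (5.47%). Of the 847 liver-called genes 137 were among them (16.2%), 85 higher in males and 52 in females. Of the 2347 fat-called genes that could be fitted in liver, 387 were among them (16.5%), 44 higher in males and 343 in females. Mup3, a major urinary protein, was 3386 to 5357 ppm in male livers (median 4797) and 277 to 499 in female livers (median 407). Its log2 difference on the signal scale was 3.61 ± 0.22 (SE, limma adjusted p = 5.85e-06). Mups are near-identical copies, so its level is uncertain between copies. Cyp3a41a, a steroid-oxidizing P450 of female liver with a close copy in Cyp3a41b, was 2422 to 3732 ppm in females and 0.0873 to 3.71 in males (-12.21 ± 0.54, limma adjusted p = 4.81e-07). Serpina3k was 5419 to 11252 in males and 1456 to 6202 in females (1.41 ± 0.34, limma adjusted p = 0.0275), and Serpina1c was 4878 to 9100 against 3204 to 4270 (0.98 ± 0.18, limma adjusted p = 0.00978). Mug1, a protease inhibitor of plasma, was 1792 to 4148 in males and 817 to 1664 in females (1.28 ± 0.23, limma adjusted p = 0.00842). Ces1c, a carboxylesterase, was 1755 to 2938 in males and 2921 to 4774 in females (-0.59 ± 0.15, limma adjusted p = 0.0317). The male and female livers overlapped for Serpina3k and Ces1c and not for the others. Car3, second in rank in fat, was 1284 to 4161 ppm in male livers and 390 to 1195 in female livers (1.45 ± 0.34, limma adjusted p = 0.0244). The count of 1456 was 883 when humanized male replicate 2 was left out and 854 when humanized female replicate 3 was. It was 923, 961 and 860 when WT female replicates 1, 2 and 3 were left out in turn. Adjusted p passed 0.05 in at least 1 alternative for Serpina3k (up to 0.0731), Ces1c (up to 0.0839) and Car3 (up to 0.0649).

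In fat, limma called 73 of 17394 genes between the sexes (0.42%), 27 higher in males (0.155%) and 46 higher in females (0.264%), and 0 of the 100 highest fat genes. That count was 44 when humanized female replicate 5 or WT female replicate 6 was left out, 48 when WT male replicate 4 was and 39 when humanized male replicate 6 was. Without both fat libraries that stood apart, the sex count was 102 and the genotype count was 6. The difference between the sex effects of the tissues was not tested. The genotype difference fitted by limma was the mean over both sexes, so a difference in 1 sex alone was not fitted by itself. Genotype was called for 5 of 15180 genes in liver (0.0329%), 1 higher (0.00659%) and 4 lower (0.0264%) in humanized mice. It was called for 4 of 17394 in fat (0.023%), 2 in each direction (0.0115%), and for 0 of the 100 highest genes of either tissue. As3mt was lower in humanized mice by -10.52 ± 0.30 on the log2 scale in liver (SE, limma adjusted p = 5.86e-08) and by -8.90 ± 0.45 in fat (limma adjusted p = 4.17e-05), and its neighbour Borcs7, a lysosome-positioning gene at the replaced locus, was called in both tissues. The liver genotype count was 3 without WT male replicate 1, WT female replicate 1 or humanized female replicate 2 and 2 without humanized male replicate 1 or 3, and the fat count was 7 without WT male replicate 5. Sex-biased liver genes took 1.44% to 1.96% of signal in WT male livers and 0.708% to 1.28% in humanized male livers. In female livers they took 0.619% to 0.824% (WT) and 0.654% to 0.929% (humanized). Genotype within 1 sex was not tested.

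The direction between tissues turned with sex for 1 gene of 13764 (0.00727%). That count was 0 after median-ratio scaling, 3 with a pseudocount of 0.1 and 4 with ribosomal-depletion livers alone. C6, which encodes a component of the complement membrane attack complex, was 331, 371 and 220 ppm in WT male livers and 68.8, 232 and 156 in humanized male livers. It was 11.0, 11.9 and 8.88 in WT female livers and 11.6, 12.0 and 6.47 in humanized female livers. In fat it was 12.4 to 66.3 ppm in the 6 females and 6.38 to 56.1 in the 5 males. In males liver lay wholly above fat (log2 difference 3.17), and in females fat lay wholly above liver (-1.46), while fat levels of the sexes overlapped. Liver C6 was higher in males by 4.37 ± 0.30 on the log2 scale (SE, limma adjusted p = 1.4e-05), and the gene was named for this turn, which was itself not tested. Between genotypes 0 genes turned (0%).

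**Figure D5:**
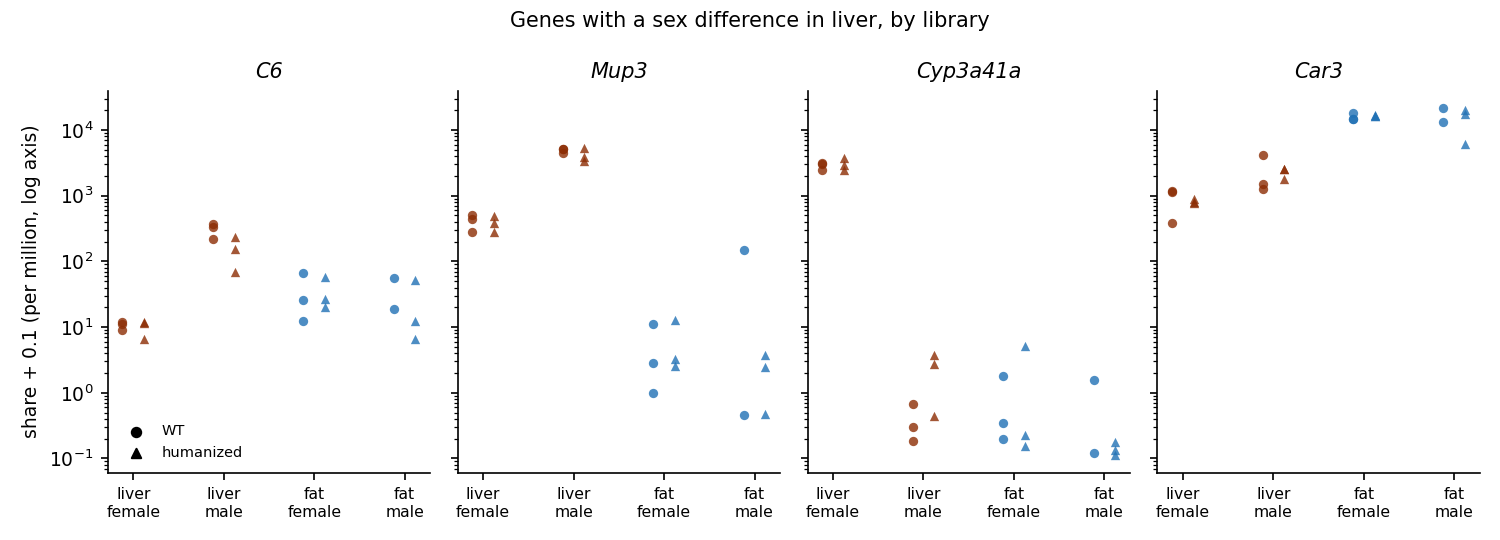
Share ppm with 0.1 added, on a log axis, of C6, Mup3, Cyp3a41a and Car3 in each library by tissue and sex, with circles for WT and triangles for humanized mice. C6 in male livers (68.8 to 371) lies above all fat libraries. In female livers (6.47 to 12.0) it lies just below female fat (12.4 to 66.3) and overlaps male fat (6.38 to 56.1). Mup3 and Cyp3a41a are separated by sex in liver, and 1 WT male fat library stands out for Mup3 at 151.

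The number of genes high in 1 tissue and under 1 ppm in the other depended on WT male fat replicate 5. Of 1910 genes with a fat mean of at least 100 ppm, 52 were under 1 ppm in every liver library. Of 1337 genes with a liver mean of at least 100 ppm, 10 were under 1 ppm in every fat library, and 92 were when WT male replicate 5 was set aside. By the median of the other tissue, 78 of the 1910 fat genes and 212 of the 1337 liver genes were under 1 ppm. The 10 largest differences toward fat, among genes of at least 100 ppm, were Adipoq, Cfd, Plin1, Fabp4, Aoc3, Nnat, Lpl, Lep, Cidec and Cav1, from -11.39 to -9.66 on the log2 scale. Aoc3, an amine oxidase on the adipocyte surface, was 1149 to 2514 ppm in fat and at most 0.436 in liver, and Cav1, the coat protein of caveolae, was 1740 to 2512 against 0.879 to 7.59. The 10 largest toward liver were Apoa1, Gc, Fgb, Fga, Alb, Ttr, Ahsg, Pzp, Mat1a and Apoa4, from 10.48 to 10.03. The fibrinogen genes Fga and Fgb reached 16550 and 14693 ppm in WT male liver replicate 1, against liver medians of 4214 and 4853.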

How the data were processed

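The authors deposited normalized signal per gene, called DESeq-normalized counts in the file names, for liver and gonadal fat in separate tables. DESeq2, STAR, Salmon, limma and mm9 are named in the submitters' processing notes, with no versions or roles, and the counting step is not given in the sources used here. The tables were joined by gene identifier, symbols for 44698 identifiers came from the tables' own name column, and 0 per-sample columns were left out. Each library was divided by its total and multiplied by 1000000. Differences were taken on log2(share + 1), which understates the change of low genes. Genes with an average of the tissue means of at least 1 ppm were compared, a call needed no overlap over 23 libraries and a log2 difference of at least 2, and a turn between sexes or genotypes needed no overlap and at least 1 in each direction. Transcript lengths were not used here.

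Within a tissue, limma 3.58.1 in R 4.3.3 was fitted to log2(signal + 1) over genes with a mean signal of at least 10, with sex, genotype and, in liver, preparation, an empirical Bayes trend and a Benjamini-Hochberg adjusted p under 0.05. Only the call rule and the limma sex difference were tried on simulated data. These had independent noise and neither a shift between tissues nor a library that stood apart, so they do not cover those features. The share of the 10 highest genes was compared with two-sided exact permutation tests. Promoters came from RefSeq on GRCm38.p6, whereas the notes name mm9, so they were matched by symbol only. No number or animal name in the labels links a liver library to a fat library, so tissues were not paired.

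Members and gene lists were chosen with earlier results of these data known. Named genes were Alb, Adipoq, As3mt and Borcs7, the 15 highest by mean in each tissue, the 10 largest called differences in each direction among genes of at least 100 ppm, up to 4 members of each list with the highest share in their higher tissue, up to 5 genes that turned between sexes or genotypes, and, of the 100 highest genes of a tissue, the 5 largest limma-called sex differences in each direction and up to 5 genotype ones. Up to 5 genes called between preparations in each direction were also to be named, and none was called. Other genes are list members named for their call, or genes of libraries that stood apart, chosen after their values were seen.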

Additional observations from a re-analysis of the deposited data

Results flagged for a closer look

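Within a tissue and sex, with both genotypes together, 16 of 148 sets of libraries had 1 library far from the rest by Dixon's test. The nominal rate of that test is about 1 in 20. These sets reuse the same libraries and share genes, so the count cannot be set against that rate. Of the 16, 6 concern WT male fat replicate 5. In that library Alb was 1555 ppm (next 92.8), bile acid and sterol genes took 0.0332% of signal, urea cycle genes 0.128%, sex-biased liver genes 0.0591%, endothelial markers 0.314% and erythrocyte genes 2.60%. Humanized male fat replicate 4 gave 6.76% of its signal to its 10 highest genes (next 11.2%). WT female fat replicate 4 gave 0.0394% to brown fat genes (next 0.00741%) and 0.0649% to skeletal muscle genes. Humanized female fat replicate 4 gave 0.427% to erythrocyte genes.

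In liver, WT male replicate 1 gave 2.44% to complement and coagulation genes (next 1.83%) and 0.220% to extracellular matrix genes. Humanized male replicate 2 gave 1.10% to ribosomal protein genes, humanized male replicate 3 gave 0.0271% to lymphocyte markers (next 0.0150%), and humanized female replicate 1 gave 0.0760% to erythrocyte genes. Adipoq was 0.0760 ppm in WT female replicate 2 (next 0.0275). C6 stood out because liver minus fat was 3.17 in males and -1.46 in females on the log2 scale, with every library on its side, and this difference was not tested.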

How the results depend on the processing

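Leaving out 1 library at a time gave 840 to 862 liver and 2611 to 2697 fat calls, 1 to 3 genes turning with sex, 854 to 1544 liver and 39 to 91 fat sex calls, and 2 to 7 liver and 3 to 7 fat genotype calls. A pseudocount of 10 gave 560 liver and 900 fat calls, median-ratio scaling gave 1514 fat calls, and a difference of 1 gave 5563 fat calls. Genes turning with sex numbered 3 with a pseudocount of 0.1, 0 after median-ratio scaling, 4 with ribosomal-depletion livers, 2 with polyA livers and 2 without both fat libraries that stood apart, a choice made after seeing the data. On shares in ppm, 3 genes were called between genotypes in liver. The causes were not tested. Among the named genes, no direction of a called difference reversed, and other genes were not checked for this. No paired analysis was possible for liver against fat because the liver and fat libraries share no replicate numbers and no animal names. Within tissues the labels give the numbers no meaning, and not every same-numbered pair correlated above 0.1. In liver 1 of 18 such pairs did (-0.154 to 0.113), and 2 of 12 libraries correlated best with their own number. In fat 9 of 15 did (-0.105 to 0.399, median 0.148) against 4 of 30 pairs of other numbers (median -0.0895), and 7 of 11 correlated best with their own number. That is only a hint that fat libraries go with their number, because deviations were taken from group means. With 2 WT male libraries these deviations are exact opposites, so their pairs mirror each other (0.358 and -0.358 with WT female replicate 4). The counts are thus not independent. With the replicate block, sex calls were 1197 in liver and 56 in fat, and genotype calls 2 and 4. Levels per kilobase were not run. Depth is unknown, so counting error cannot be given.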

Other observations

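Brown fat transcripts in WT female fat replicate 4 included Ucp1, the uncoupling protein, at 87.1 ppm against 0.0356 to 12.3 in the other fat libraries, Cidea at 194 against 4.34 to 29.5, and the thyroid hormone activating enzyme Dio2 at 11.8 against 0.192 to 1.43. In humanized male fat replicate 4, Itgax, a marker of macrophages and dendritic cells, was 246 ppm against 1.37 to 96.9, and the macrophage elastase Mmp12 was 493 against 0.0573 to 190. The next highest values of Itgax were in humanized female replicate 4 at 96.9 and WT male replicate 5 at 87.8.

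The liver-transcript level of fat libraries lay at 0.0204% to 0.0395% of the liver mean in the 4 libraries numbered 4, 0.114% to 3.24% in the 4 numbered 5 and 0.0556% to 0.195% in the 3 numbered 6. What the numbers stand for is not given in the labels.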
